A study of Mus musculus with 11 samples.

Results

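The expression of 9 genes that mark CD4+ helper and regulatory T-cells was followed across splenic T-cells of a mouse model of T-cell prolymphocytic leukemia (T-PLL). They were Cd4, Cd40lg, Foxp3, Ikzf2, Il2ra, Tnfrsf4, Tnfrsf18, Izumo1r and Il21. The members were taken by name, as the rows of the expression table that carried that single gene symbol, and 9 of the 19937 genes with a row qualified, each through 1 row. RNA was hybridized to 11 whole-transcript arrays (Affymetrix Mouse Gene 1.0 ST). Of these, 8 arrays held T-cells of Lckpr-TCL1A+/- mice, which carry 1 copy of a human TCL1A transgene under the proximal Lck promoter, active from early thymic T-cell development on. Chronic-phase leukemias (3 arrays) had 30 to 70% tumor cells in blood and spleen at an average age of 12 months. Exponential-phase leukemias (5 arrays) came from mice of 15 months on average, with over 80% tumor cells in blood and over 90% in spleen, and the blood lymphocytes doubled in 12 days (SEM 0.8). Wild-type T-cells came from age-matched C57BL/6 mice, pooled by 3 for each of the 3 arrays. The magnetic enrichment took CD8+ T-cells from the leukemic spleens but all CD3+ T-cells from the wild-type spleens, so that genotype and cell selection cannot be told apart in any comparison with wild type. The sources used here leave unsaid whether a leukemia array was 1 mouse, and p-values therefore reflect array-to-array spread, which may be technical.

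CD4+ helper T-cells instruct B-cells and other T-cells through contact molecules such as CD40 ligand and through cytokines such as IL-21. Regulatory T-cells are a suppressive subset of CD4+ T-cells in which the transcription factor Foxp3 maintains the lineage, usually with Helios (Ikzf2) in cells of thymic origin, and which carry the high-affinity IL-2 receptor chain CD25 (Il2ra), OX40 (Tnfrsf4), GITR (Tnfrsf18) and the folate-receptor-like protein Izumo1r. Several of these molecules also appear on activated T-cells of either lineage, so that no member other than Foxp3 is a close mark of the regulatory subset.

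Values are log2 signals after RMA, a background correction and normalization, and are compared for 1 gene between arrays, not between genes. Arrays of the same group correlated over all rows at 0.944 to 0.969 and arrays of different groups at 0.929 to 0.966. Cd8a, a chain of the CD8 co-receptor, lay between 6.71 and 8.20 in 7 of the 8 leukemia arrays and at 2.96 in exponential replicate 4, whose Cd8b1 was 4.33 against 8.15 to 9.21. The wild-type arrays had 6.16 to 8.31 for Cd8a and 7.21 to 8.38 for Cd8b1, so that for both genes the ranges of those 7 leukemias and of wild type overlapped. The T-cell receptor component Cd3e was 7.48 in that array, and the other exponential arrays had 7.24 to 7.45. The array labelled exponential replicate 4 therefore went against its CD8+ label, and the exponential results of the 9 genes are given with and without it. The mean of 13 CD8-lineage genes was 5.47 to 6.26 in the wild-type arrays, 6.08 to 6.66 in the chronic arrays, 5.99 to 6.91 in the other exponential arrays and 3.23 in replicate 4. Myeloid markers (13 of 13 measured) averaged 2.25 to 2.43 in wild type, 2.26 to 2.44 in the chronic phase, 2.77 to 3.25 in the other exponential arrays and 3.59 in replicate 4. Plasma-cell markers (7 of 7 measured) averaged 4.04 to 5.50 in wild type, 3.27 to 4.59 in the chronic phase and 2.97 to 3.71 in the exponential phase, with 3.19 in replicate 4, and 7 of the 7 were below wild type in both phases. B-cell markers (9 of 10 measured) averaged 2.75 to 3.69, 2.46 to 3.61 and 2.98 to 4.63, with 3.15 in replicate 4. Erythroid markers (6 of 10 measured) averaged 3.95 to 4.50 in wild type, 2.88 to 4.68 in the chronic phase, 2.83 to 3.13 in the other exponential arrays and 3.78 in replicate 4. Of these Car1, a carbonic anhydrase of red cells, fell by 6.11 in the exponential phase (limma, adjusted p = 0.0114) and by 6.70 without replicate 4. It was the 1 erythroid gene called in that phase. With all 5 arrays, 4 of the 6 were below wild type, with a median difference of -0.22 and a highest of 0.36. The part of these cell types in the results was not tested.

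Set against wild type, the helper and regulatory genes were lower in chronic leukemias. The 9 genes were chosen with earlier results of these data known, so the shares of all genes beside their counts are a description. In chronic leukemias 7 of the 9 genes fell (limma, adjusted p under 0.05 and a fold of at least 1.5), whereas 0.316% of all genes were called lower and 0.14% higher in that comparison. Every chronic array lay below every wild-type array for 9 of the 9 genes, and this was so for 7.52% of all genes. The median log2 difference of the 9 genes was -1.82, beside -0.0017 over all genes. With each array left out in turn 0 to 5 of the 9 passed, and 0 did without wild-type replicate 1. Of these 6 fits the chronic call held in 5 for Il21, 3 for Cd4, 3 for Ikzf2, 2 for Cd40lg, 2 for Izumo1r, 1 for Il2ra and 0 for Tnfrsf4. In exponential leukemias 2 of the 9 fell when all 5 arrays entered (0.281% of all genes were called lower and 0.135% higher), and all 9 fell without replicate 4 (0.562% lower and 0.547% higher). Every exponential array lay below every wild-type array for 7 of the 9 genes (3.5% of all genes), and for 9 of the 9 without replicate 4 (5.31%). Their median difference was -1.43 with replicate 4 and -1.5 without it, beside 0.0067 and 0.0023 over all genes. Over all 8 leukemias 6 of the 9 fell (0.441% of all genes), and all 9 without replicate 4 (0.752%). In bulk samples, fewer cells of a type and less RNA per cell cannot be told apart.

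**Figure D1:**
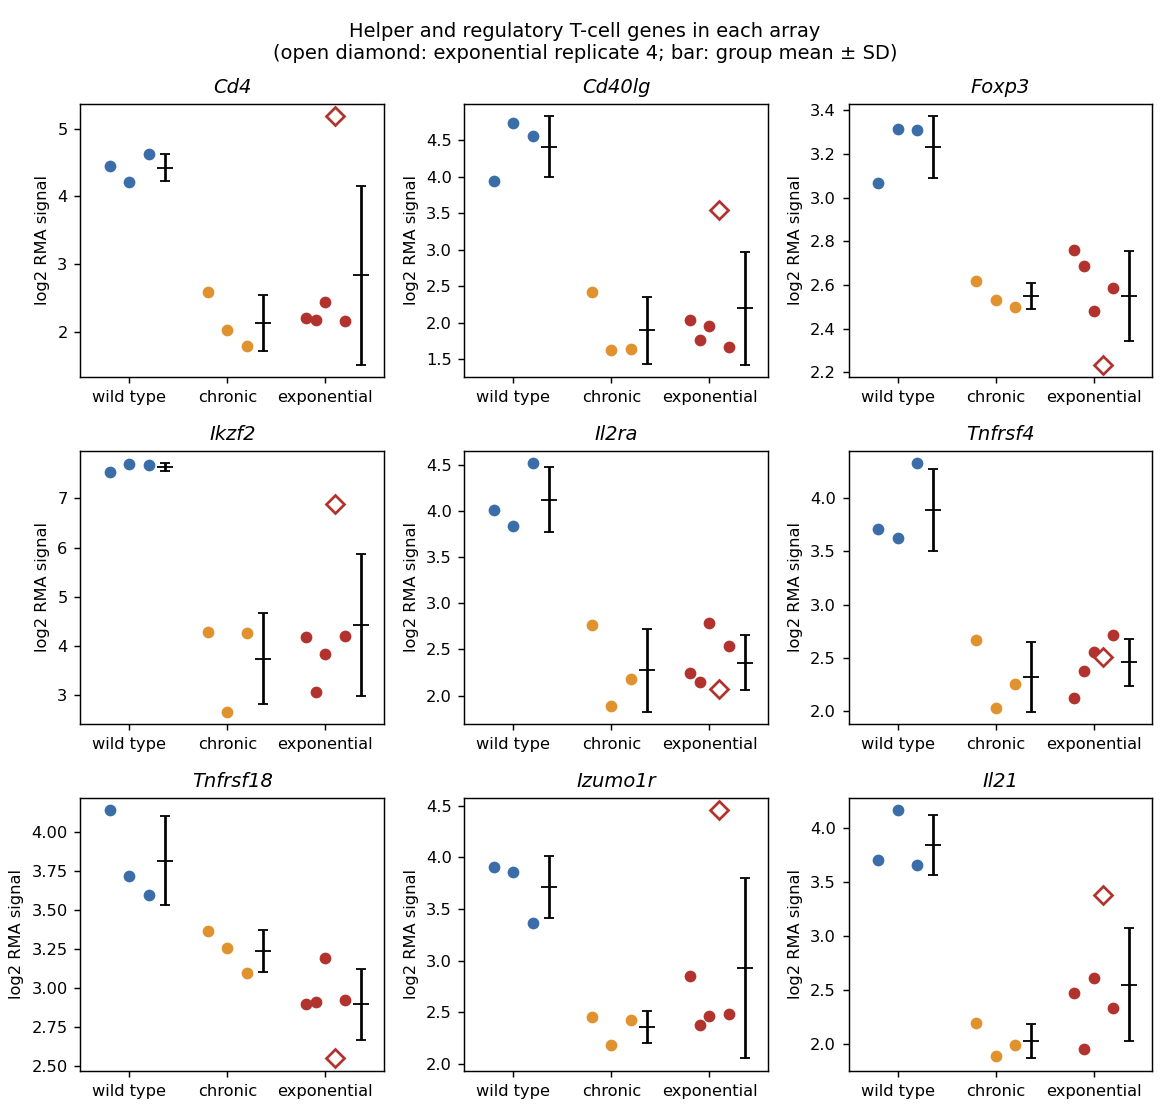
Log2 RMA signal (y axis, a separate scale in each panel) of the 9 genes in wild-type, chronic and exponential arrays (x axis). Each point is an array, the open diamond is exponential replicate 4, and the bar gives the group mean with its SD. Chronic arrays lie below the wild-type arrays in all 9 panels. The open diamond lies above the other exponential arrays for Cd4, Cd40lg, Ikzf2, Izumo1r and Il21, and below them for Foxp3, Il2ra and Tnfrsf18.

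The promoter sequences of the members are shown because these genes were lower together. RefSeq entries (GRCm38.p6) were at hand for 6 of the 9 genes, and Foxp3 had a pair of windows, of which the one at the annotated gene start is shown. Each line gives the 250 bases before the transcription start of its entry, 5′ to 3′ on the gene's strand. For Tnfrsf4 and Izumo1r that start lies inside the annotated gene, so part of each of these windows is within the gene. Capitals mark GGAAA or its reverse complement TTTCC (the core bound by NFAT factors, which relay T-cell receptor signals), TTCNNNGAA (bound by STAT factors, which relay cytokine signals) and TGTGGT or ACCACA (bound by RUNX factors).
Foxp3 (chrX:7579426-7579675, plus strand): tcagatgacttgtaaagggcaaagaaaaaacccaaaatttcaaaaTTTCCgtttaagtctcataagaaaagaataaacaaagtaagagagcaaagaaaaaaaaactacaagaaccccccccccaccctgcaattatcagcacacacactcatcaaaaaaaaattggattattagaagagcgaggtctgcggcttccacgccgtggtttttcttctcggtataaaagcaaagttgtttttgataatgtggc
Il2ra (chr2:11642542-11642791, plus strand): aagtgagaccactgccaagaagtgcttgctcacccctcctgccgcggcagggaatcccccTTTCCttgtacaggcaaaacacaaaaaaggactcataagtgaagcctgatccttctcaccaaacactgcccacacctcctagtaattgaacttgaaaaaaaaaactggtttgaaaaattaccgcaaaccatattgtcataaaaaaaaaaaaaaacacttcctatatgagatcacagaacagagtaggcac
Tnfrsf4 (chr4:156013445-156013694, plus strand): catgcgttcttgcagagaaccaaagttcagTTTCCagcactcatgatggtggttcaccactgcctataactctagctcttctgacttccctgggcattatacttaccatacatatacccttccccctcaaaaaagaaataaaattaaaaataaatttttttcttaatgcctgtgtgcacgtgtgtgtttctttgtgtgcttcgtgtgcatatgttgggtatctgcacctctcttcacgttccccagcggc
Tnfrsf18 (chr4:156026072-156026321, plus strand): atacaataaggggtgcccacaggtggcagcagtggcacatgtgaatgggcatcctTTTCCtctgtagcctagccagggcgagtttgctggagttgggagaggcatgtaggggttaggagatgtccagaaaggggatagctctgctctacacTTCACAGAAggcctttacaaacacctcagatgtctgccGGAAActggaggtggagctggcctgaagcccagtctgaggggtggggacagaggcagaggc
Izumo1r (chr9:14903768-14904017, minus strand): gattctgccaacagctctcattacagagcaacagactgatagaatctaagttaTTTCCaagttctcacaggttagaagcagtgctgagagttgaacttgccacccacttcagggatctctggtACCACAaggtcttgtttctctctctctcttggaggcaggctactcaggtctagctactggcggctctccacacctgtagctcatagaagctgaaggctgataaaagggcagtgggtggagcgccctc
Il21 (chr3:37232637-37232886, minus strand): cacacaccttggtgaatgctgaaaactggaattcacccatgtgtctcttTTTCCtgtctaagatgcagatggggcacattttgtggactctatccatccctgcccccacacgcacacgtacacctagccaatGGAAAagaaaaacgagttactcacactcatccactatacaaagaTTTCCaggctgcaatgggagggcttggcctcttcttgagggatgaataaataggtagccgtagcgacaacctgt
The search covered both strands. The NFAT core was present in 7 of the 7 windows and in 55.6% of all 32851 windows of this length. The STAT motif was present in 2 of the 7 (7.02% of all windows), namely in the Tnfrsf18 window and in the second Foxp3 window, where it overlapped the NFAT core. The RUNX motif was present in 1 of the 7, that of Izumo1r (14.0% of all windows). Also searched were the forkhead motif TGTTTAC, present in 0 of the 7 (3.17% of all windows), and the E-box CANNTG, present in 6 of the 7 (66.2%). A match is a description of these letters only.

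Cd4 encodes the co-receptor for MHC class II and defines the helper lineage. Its log2 signal was 4.44, 4.21 and 4.62 in the wild-type arrays and 2.59, 2.02 and 1.79 in the chronic arrays. In the exponential arrays it was 2.21, 2.17, 2.44, 5.18 and 2.15 for replicates 1 to 5. The 7 leukemias other than exponential replicate 4 lay below every wild-type array, and replicate 4 lay above every wild-type array. Cd4 fell in chronic leukemias by 2.29 on the log2 scale (SE 0.218, 4.89-fold, adjusted p = 0.0122, limma). In exponential leukemias the difference was -1.59 (SE 0.636, adjusted p = 0.442) with all 5 arrays, and Cd4 fell by 2.18 (SE 0.131, adjusted p = 0.000167) without replicate 4.

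Cd40lg encodes CD40 ligand, the contact signal by which helper cells license B-cells. The wild-type arrays had 3.94, 4.73 and 4.56, and the chronic arrays 2.42, 1.63 and 1.64. The exponential arrays had 2.03, 1.77, 1.95, 3.54 and 1.67, so replicate 4 stood between the other leukemias and wild type and no leukemia overlapped the wild-type arrays. Cd40lg fell by 2.52 in chronic leukemias (SE 0.278, 5.73-fold, adjusted p = 0.0176). The exponential difference was -2.22 (SE 0.399, adjusted p = 0.0577), and without replicate 4 Cd40lg fell by 2.56 (SE 0.187, adjusted p = 0.000348).

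Il21 encodes a cytokine of follicular helper T-cells that acts on B-cells. Its signal was 3.70, 4.17 and 3.66 in wild type and 2.20, 1.89 and 1.99 in the chronic arrays. The exponential arrays read 2.47, 1.96, 2.61, 3.38 and 2.34. Replicate 4 was again the highest leukemia, below the lowest wild-type array. Il21 fell by 1.82 in chronic leukemias (SE 0.170, 3.53-fold, adjusted p = 0.0115). In the exponential phase the difference was -1.29 (SE 0.277, adjusted p = 0.103), and without replicate 4 it fell by 1.5 (SE 0.181, adjusted p = 0.00682).

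Foxp3, the regulatory lineage factor, had a narrow range and lay below the upper quartile of all rows (3.50) in every array, wild type included. Wild-type arrays gave 3.07, 3.32 and 3.31, chronic arrays 2.62, 2.53 and 2.50, and exponential arrays 2.76, 2.69, 2.48, 2.24 and 2.59. Wild type and leukemia did not overlap, and replicate 4 was the lowest of the 11 arrays. The chronic difference was -0.68 (SE 0.123, 1.60-fold, adjusted p = 0.0787) and the exponential difference was -0.68 (SE 0.133, adjusted p = 0.0782), neither past the threshold. Foxp3 fell by 0.60 without replicate 4 (SE 0.118, 1.52-fold, adjusted p = 0.0480) and by 0.68 over all 8 leukemias (SE 0.110, 1.60-fold, adjusted p = 0.0132).

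Ikzf2 encodes Helios, an Ikaros-family factor of regulatory T-cells that is also found in some activated and innate-like T-cells. The wild-type arrays had 7.54, 7.69 and 7.68, the chronic arrays 4.29, 2.67 and 4.26, and the exponential arrays 4.19, 3.06, 3.85, 6.88 and 4.21. Wild type varied little (SD 0.0841), chronic replicate 2 was the lowest array, and exponential replicate 4 lay near but below wild type. Ikzf2 fell by 3.89 in chronic leukemias (SE 0.403, 14.9-fold, adjusted p = 0.0160). The exponential difference was -3.20 (SE 0.691, adjusted p = 0.105) with all arrays, and without replicate 4 Ikzf2 fell by 3.81 (SE 0.250, 14.0-fold, adjusted p = 0.000167).

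Il2ra encodes CD25, the chain that gives the IL-2 receptor its high affinity. Wild-type arrays read 4.01, 3.84 and 4.52, chronic arrays 2.77, 1.88 and 2.18, and exponential arrays 2.25, 2.14, 2.79, 2.07 and 2.53. All 8 leukemias lay below wild type, and replicate 4 was the lowest exponential array. Il2ra fell by 1.85 in chronic leukemias (SE 0.260, 3.61-fold, adjusted p = 0.0394) and by 1.77 in exponential leukemias (SE 0.201, 3.41-fold, adjusted p = 0.0114), or by 1.70 without replicate 4 (SE 0.199, adjusted p = 0.00557). Its chronic call held in 1 of 6 fits with an array left out, with adjusted p from 0.0310 to 0.134. Its exponential call held with each array left out in turn, with adjusted p from 0.00557 to 0.0441.

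Tnfrsf4 and Tnfrsf18 encode the costimulatory receptors OX40 and GITR, and lie next to each other in the RefSeq annotation. Tnfrsf4 was 3.71, 3.62 and 4.33 in wild type, 2.67, 2.03 and 2.26 in the chronic arrays, and 2.12, 2.38, 2.56, 2.51 and 2.71 in the exponential arrays. It did not overlap between wild type and leukemia, and replicate 4 was within the range of its group. Tnfrsf4 fell by 1.56 in the chronic phase (SE 0.234, 2.96-fold, adjusted p = 0.0452) and by 1.43 in the exponential phase (SE 0.184, 2.69-fold, adjusted p = 0.0161), or by 1.44 without replicate 4 (SE 0.197, adjusted p = 0.0113). Its chronic call was lost in all 6 fits with an array left out, with adjusted p from 0.0575 to 0.135, and its exponential call was lost without wild-type replicate 1 or 2, where adjusted p reached 0.0520. Tnfrsf18 was 4.14, 3.72 and 3.59 in wild type, 3.36, 3.26 and 3.10 in the chronic arrays, and 2.90, 2.91, 3.19, 2.55 and 2.93 in the exponential arrays. Again no leukemia overlapped wild type, with replicate 4 the lowest array. The Tnfrsf18 difference was -0.58 in the chronic phase (SE 0.168, 1.49-fold, adjusted p = 0.239) and -0.92 in the exponential phase (SE 0.165, adjusted p = 0.0561), and Tnfrsf18 fell by 0.84 without replicate 4 (SE 0.150, 1.79-fold, adjusted p = 0.0324).

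Izumo1r, also called FR4 or JUNO, is a folate-receptor family protein found on regulatory and anergic CD4+ T-cells and on the egg, where it binds sperm. Its signal was 3.91, 3.86 and 3.36 in wild type, 2.46, 2.18 and 2.43 in the chronic arrays, and 2.85, 2.38, 2.47, 4.46 and 2.48 in the exponential arrays. As for Cd4, replicate 4 exceeded every wild-type array and the other 7 leukemias lay below all of them. For 1.81% of all genes replicate 4 reached the wild-type range while the other exponential arrays lay below it, and of the 9 genes these were the 2. Izumo1r fell by 1.36 in chronic leukemias (SE 0.175, 2.56-fold, adjusted p = 0.0319). The exponential difference was -0.78 (SE 0.435, adjusted p = 0.640), and without replicate 4 it fell by 1.17 (SE 0.167, adjusted p = 0.0134).

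**Figure D2:**
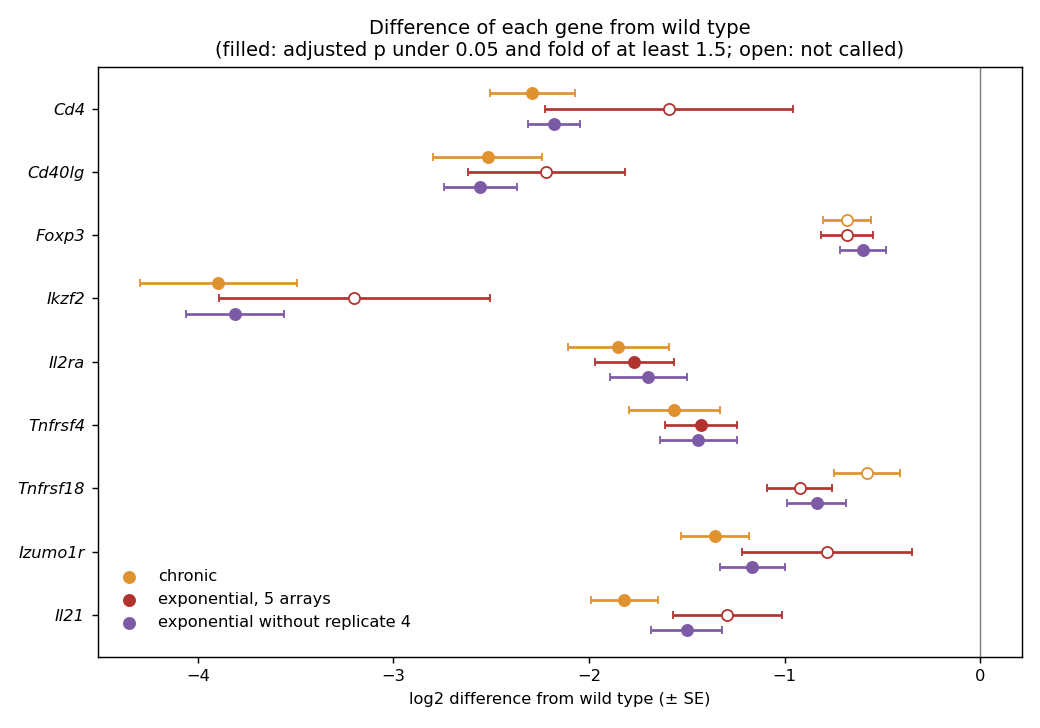
Log2 difference from wild type (x axis, with SE) of the 9 genes (y axis) in chronic leukemias, in the 5 exponential leukemias and in the exponential leukemias without replicate 4. Filled points passed an adjusted p of 0.05 with a fold of at least 1.5. All 9 genes lie below 0 in the 3 comparisons, and with all 5 exponential arrays Il2ra and Tnfrsf4 alone are filled.

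Among the chronic arrays, replicate 1 was the highest for 9 of the 9 genes, as it was for 32.4% of all genes, and replicate 2 was the lowest for 6 (35.8% of all genes). Among the exponential arrays replicate 4 was the highest for 5 genes (22.7% of all genes) and the lowest for 3 (20.7%). These orders are given as a description.

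Exponential replicate 4 was high for some of the 9 genes and low for others. It lay at least 0.5 log2 units above every other exponential array for 5 of the 9 genes (Cd4, Cd40lg, Ikzf2, Izumo1r and Il21), and this was so for 3.62% of all genes. The gap to the next exponential array was 2.74 for Cd4, 2.67 for Ikzf2, 1.61 for Izumo1r, 1.51 for Cd40lg and 0.77 for Il21. The array was the lowest of the 8 leukemias for Foxp3 and Tnfrsf18 and the lowest exponential array for Il2ra, and for Tnfrsf4 it lay within the range of the other exponential arrays. Of the other helper T-cell genes, 6 of 25 lay at least 0.5 above every other exponential array, namely Maf, Icos, Pdcd1, Il4, Tox and Cd5. Il4, a cytokine of type 2 helper cells, was 4.17 in replicate 4 and 1.81 to 2.29 in the other 10 arrays. Il5 and Il13 of the same list were 1.87 and 2.33 in replicate 4, within the other exponential arrays (1.70 to 2.24 and 2.16 to 2.55). Gata3 was 4.32 in replicate 4, 0.30 above the highest of them, and Zbtb7b was 2.47, 0.0023 above. Icos, a costimulatory receptor of follicular helper cells, was 7.53 there, and 4.93 to 6.13 in the remaining exponential arrays. Of the other regulatory T-cell genes 1 of 25 did so, the chemokine receptor Ccr4, which type 2 helper cells carry too (5.68 against 2.15 to 2.44). In the other direction, replicate 4 lay at least 0.5 below every other exponential array for the helper-list genes Ifng, Ccr7 and Il6ra. Ifng was 2.38 there and 7.04 to 8.98 in the other exponential arrays. Cd28, Tbx21, Rora and Sh2d1a of that list were below by less. Of the regulatory list Nt5e, Entpd1, Il2rb and Prdm1 lay at least 0.5 below. Ctla4, an inhibitory receptor of regulatory and activated T-cells, was 3.85 in replicate 4, the lowest of all arrays, with 9.62 to 10.4 in wild type. These values are from a single array and have no replicate, and the genes beyond the 9 were named after their values were seen.

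**Figure D3:**
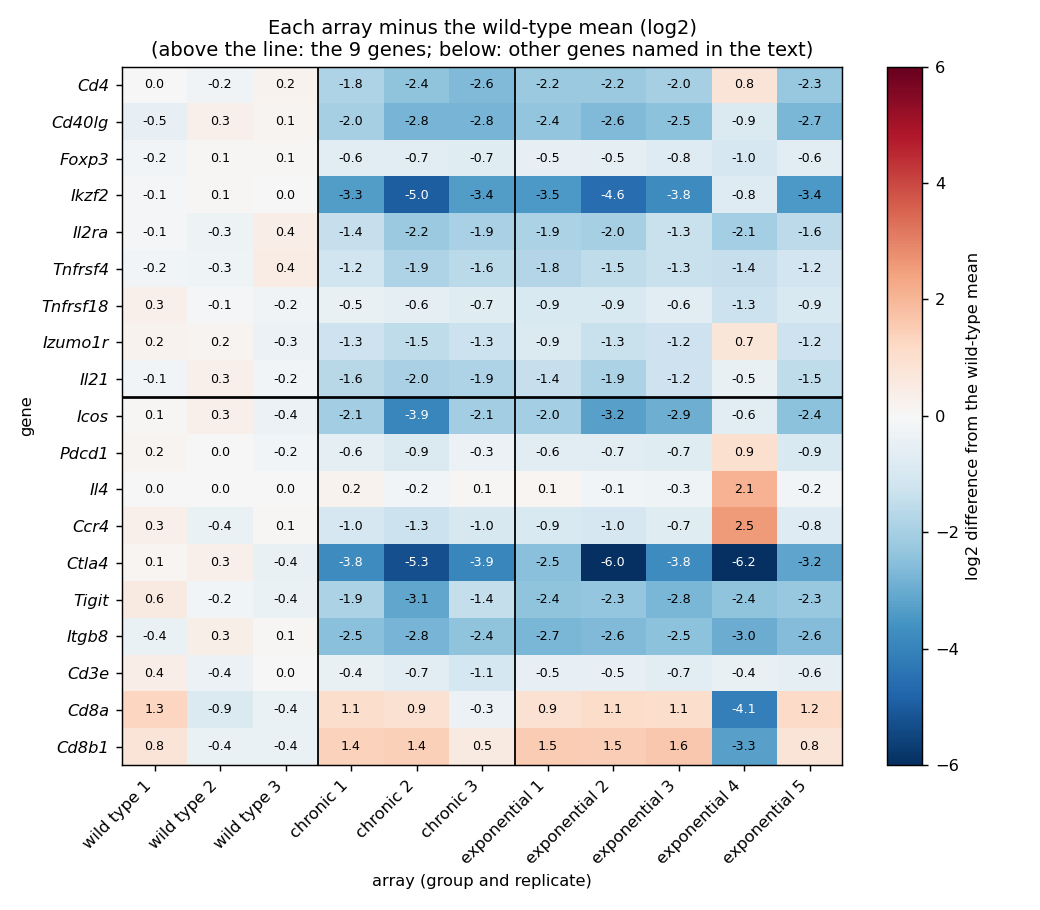
Log2 difference of each array (x axis) from the wild-type mean for the 9 genes (above the line) and for 10 other genes named in the text or used as checks (below it). Colour and the printed number give the difference. Of the 9 genes, Cd4 and Izumo1r are above the wild-type mean in exponential replicate 4, and Cd8a is 4.1 below it there. The other 7 of the 9 genes are below the wild-type mean in all 8 leukemias, as are Ctla4, Tigit and Itgb8.

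Between the phases, 0 of the 9 genes differed (limma, adjusted p under 0.05 and a fold of at least 1.5), and 0 of all 19937 genes were called (0.0%), with or without replicate 4. At an unadjusted p under 0.05 there was 1 of the 9 genes, Tnfrsf18 (3.5% of all genes were lower at that p), which was lower by 0.34 in the exponential phase (SE 0.142, adjusted p = 0.795), and by the methods' t-test with a fold over 1.5 there were 0. The other 8 differences ran from 0.00056 for Foxp3 to 0.70 for Cd4 (SE 0.654, adjusted p = 0.900). Without replicate 4 the Cd4 difference was 0.11 (SE 0.184, adjusted p = 0.938) and that of Ikzf2 moved from 0.69 (SE 0.766) to 0.08 (SE 0.420, adjusted p = 0.984). The phases share no arrays, but both were set against the same 3 wild-type arrays.

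The wider programs to which the members belong were read from lists of related genes, also chosen with earlier results of these data known. Of 25 other regulatory T-cell genes with a row, 5 fell and 0 rose in chronic leukemias. The median of the list was -0.62, and the background share is given above. The 5 were Ctla4, which fell by 4.32 (SE 0.397, 20.0-fold, adjusted p = 0.0111), the decoy interleukin-1 receptor Il1r2 (-2.92, adjusted p = 0.0183), the integrin chain Itgb8, which takes part in activating TGF-beta (-2.57, adjusted p = 0.00788), the semaphorin receptor Nrp1 (-2.05, adjusted p = 0.0305) and the costimulatory receptor Tnfrsf9 (-1.25, adjusted p = 0.0166). In exponential leukemias 7 of the 25 fell and 0 rose, with a list median of -0.54. Those with the smallest p were Itgb8 (-2.68, adjusted p = 0.000465), the inhibitory receptor Tigit (-2.44, adjusted p = 0.00168), the opioid precursor Penk (-3.10, adjusted p = 0.00194) and Tnfrsf9 (-1.16, adjusted p = 0.0128). Without replicate 4 it was 9 of 25, Ctla4 and Ccr4 being the 2 added, and these 4 were at -2.61 (Itgb8, adjusted p = 0.000167), -2.45 (Tigit, adjusted p = 0.000971), -2.98 (Penk, adjusted p = 0.000812) and -1.19 (Tnfrsf9, adjusted p = 0.00738).

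Tigit was 7.40, 6.65 and 6.46 in wild type, 4.95, 3.72 and 5.41 in the chronic arrays, and 4.41, 4.50, 4.08, 4.43 and 4.55 in the exponential arrays. Itgb8 was 4.32, 5.05 and 4.80 in wild type, 2.20, 1.95 and 2.31 in the chronic arrays, and 1.98, 2.09, 2.25, 1.76 and 2.13 in the exponential arrays. For both genes no leukemia overlapped wild type, and replicate 4 lay with or below the other leukemias.

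Of 25 other helper T-cell genes 3 fell in chronic leukemias and 0 rose, with a list median of -0.53. They were the signaling receptor Slamf1 (-2.22, adjusted p = 0.00619), the nuclear factor Tox (-2.10, adjusted p = 0.0452) and the nuclear receptor Rora (-1.59, adjusted p = 0.0452). Slamf1 and Rora also fell in exponential leukemias (-1.98, adjusted p = 0.0131, and -1.74, adjusted p = 0.00410), 2 of the 25. Without replicate 4 Slamf1 was at -1.89 (adjusted p = 0.00738) and Rora at -1.64 (adjusted p = 0.000971). There were then 5 of 25, which added Tox (-2.01, adjusted p = 0.00299), Icos (-2.66, adjusted p = 0.00246) and the inhibitory receptor Pdcd1 (-0.73, adjusted p = 0.0270). Icos in chronic leukemias was -2.69 with an adjusted p of 0.0741. Some lineage factors of helper subsets were named for their known roles after their values were seen. In chronic leukemias Gata3 (type 2) was at -0.50 (adjusted p = 0.272), Tbx21 (type 1) at 0.09 (adjusted p = 0.949) and Bcl6 (follicular) at -0.80 (adjusted p = 0.351). Of these 3, 0 passed in either phase (limma). They do not stand for all such factors of the list, since Rora fell in both phases. Zbtb7b, a CD4-lineage marker, was at -0.52 in chronic and -0.38 in exponential leukemias. It was lower at an unadjusted p under 0.05 in both phases (limma) but was not called.

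Of each list of partners with which the members work, 0 or 1 gene was called in each phase when all arrays entered. Over all genes, 0.316% were called lower in the chronic phase and 0.281% in the exponential phase. In IL-2 receptor signaling 0 of 12 genes were called in either phase (limma), and the list medians were -0.08 and -0.06. At an unadjusted p under 0.05, 1 was lower and 2 were higher in the chronic phase (4.8% of all genes were lower). In the exponential phase 4 were lower and 1 was higher at that p (4.99% of all genes were lower). Il2 itself was -0.35 in the chronic phase (adjusted p = 0.265). Bcl2, a survival factor downstream of the receptor, was 1.17 higher in the chronic phase (adjusted p = 0.114) and rose by 1.43 in the exponential phase without replicate 4 (adjusted p = 0.0202). Among 15 partners of the TNF-family members Tnfrsf9 was the 1 gene called in each phase. Among 9 receptors and partners of IL-21, CD4 and JUNO there were 0, with the tetraspanin Cd9, an egg-surface partner of JUNO in fertilization, at -1.27 in the chronic phase (adjusted p = 0.258) and the receptor Il21r at 0.44 in the exponential phase (adjusted p = 0.322) and at 0.39 without replicate 4 (adjusted p = 0.340). At an unadjusted p under 0.05 the latter list had 2 lower genes in the chronic phase and 1 in each direction in the exponential phase. The TNF-family partners had 3 lower and 1 higher at that p in the chronic phase, and 3 lower in the exponential phase. The shares of all genes lower at that p are those given above in this paragraph.

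In the Ikaros family 1 of 5 genes fell in the chronic phase, Ikzf2 itself. Ikzf3 was 0.37 higher in the chronic phase (adjusted p = 0.472) and 0.49 in the exponential phase (adjusted p = 0.467), or 0.57 without replicate 4 (adjusted p = 0.283). Of 18 partners and upstream factors of Foxp3, 1 fell in the chronic phase, the runt-domain factor Runx1 (-1.28, adjusted p = 0.0452). In the exponential phase 1 fell, the nuclear receptor Nr4a2 (-2.30, adjusted p = 0.0183, and -2.23, adjusted p = 0.0132, without replicate 4). Nr4a2 was at -2.23 in the chronic phase too, the lowest of the list, but was not called there. At an unadjusted p under 0.05 (limma), 6 of the 18 were lower and 2 higher in the chronic phase (4.8% of all genes were lower). In the exponential phase 2 were lower and 2 higher at that p (4.99% of all genes were lower). Runx1 was 4.45, 4.81 and 4.12 in wild type, 3.13, 3.33 and 3.07 in the chronic arrays and 3.55, 3.12, 3.61, 4.73 and 3.04 in the exponential arrays, with replicate 4 inside the wild-type range. Without replicate 4 Runx1 fell by 1.13 in the exponential phase (adjusted p = 0.0285).

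**Figure D4:**
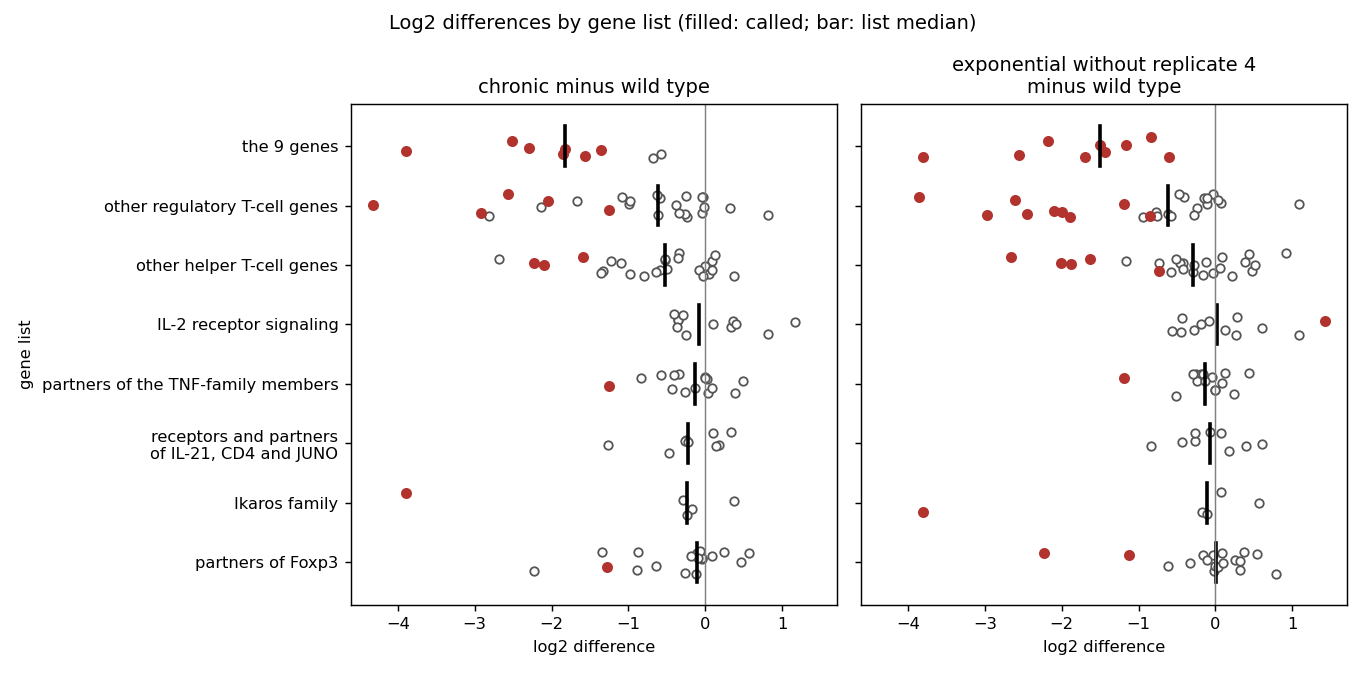
Log2 difference from wild type (x axis) of each gene of the lists (y axis) in chronic leukemias (left) and in exponential leukemias without replicate 4 (right). Each point is a gene, filled where called, and the bar is the list median. The 9 genes have medians of -1.82 and -1.5, the other regulatory T-cell genes -0.62 and -0.61, and the medians of the partner lists lie between -0.24 and 0.02.

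Genes alike in pattern were sought by Pearson correlation over the 11 arrays with the mean of the standardized members, among 1205 genes with an SD of at least 0.5. The arrays share their groups, so that these values are a description. The 10 nearest were the polymerase subunit Polg2 (r = 0.962), Nrp1 (0.962), the endosomal tether Eea1 (0.960), the integrin chain Itgav (0.953), Tnfrsf9 (0.948), Lrba (0.946), Gpm6b (0.941), the hypoxia factor Hif1a (0.939), the growth-factor receptor Igf1r (0.935) and S100a4 (0.926). Lrba is known for keeping CTLA-4 at the cell surface, and its signal was 6.41 to 6.50 in wild type and 5.12 to 5.48 in the 8 leukemias. For Cd4 alone the nearest were Bmpr2 (0.943), Lclat1 (0.942) and Tspan32 (0.939), and for Foxp3 alone Itgb8 (0.932), Gpr52 (0.927) and Rgs16 (0.922). Bmpr2, a receptor for bone morphogenetic proteins, was 5.42 in replicate 4 and 2.79 to 2.92 in the other exponential arrays, and Rgs16, a brake on G-protein signaling, was 2.76 in replicate 4 and 2.90 to 4.37 in the others. Between the members the 36 pairwise correlations ran from 0.228 to 0.976 (median 0.801) over 11 arrays and from 0.695 to 0.986 (median 0.922) over the 10 arrays without replicate 4.

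The protein-coding genes next to the members in the RefSeq annotation served as a local comparison. Of the 16 neighbours with a row that are not members, 0 were called in chronic leukemias (limma) and 0 in exponential leukemias with or without replicate 4. In chronic leukemias 3 of the 16 were lower at an unadjusted p under 0.05 (limma), beside 4.8% of all genes. They were Panx1 (-0.48), Il2 (-0.35) and Gpr83 (-0.34). Gpr83 is on the list of other regulatory T-cell genes and Il2 on that of other helper genes, so the neighbours are not free of T-cell genes. The chronic differences of the 16 neighbours ran from -0.48 to 1.05 with a median of -0.11. Lag3, the inhibitory receptor beside Cd4, was -0.26 (SE 0.323, adjusted p = 0.860), and Il15ra, the interleukin-15 receptor chain beside Il2ra, was -0.41 (SE 0.231, adjusted p = 0.609). Il2, beside Il21, is given above.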

How the data were processed

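The 11 arrays of splenic T-cell RNA were grouped by the titles of the labels. The authors deposited log2 signals, which per the study's methods were background-corrected by RMA and quantile-normalized with the affy package. The sources used here do not give the package version. The log base was judged from the values (0.775 to 13.5). No detection calls were used, so the level of background is unknown. The median of all rows was 2.30 and the upper quartile 3.50. Of the 8 leukemias, the signal exceeded that median in 3 for Cd4, 2 for Cd40lg, 3 for Il2ra and 4 for Il21. It did so in 8 for Ikzf2 and Tnfrsf18, 7 for Foxp3 and Izumo1r and 5 for Tnfrsf4. Low signals may bound the size of a fall, which was not tested. Precision is limited by how few arrays there are. The human transgene was not analysed here.

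Of 34760 rows, 21640 carried 1 gene symbol in the platform annotation, and 19937 genes remained after the row with the highest mean was kept for each gene. Each comparison was fitted on its own arrays with limma 3.58.1 (R 4.3.3, lmFit and eBayes), Benjamini-Hochberg adjustment over all genes, and a call needed a fold of at least 1.5 and an adjusted p under 0.05. The fits were tested on simulated data. Members and gene lists were chosen with earlier results of these data known. Named genes were the members, up to 4 called genes of each list with the smallest p (up to 2 given as values where none was called), the 10 genes most alike in pattern to the members and 3 each for Cd4 and Foxp3, and Cd8a, Cd8b1, Cd3e and Ctla4. Alternatives included the methods' t-test (Student's, with a fold over 1.5).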

Additional observations from a re-analysis of the deposited data

Results flagged for a closer look

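Exponential replicate 4 lay far from the other 4 exponential arrays for 3 of the 9 genes. Cd4 was 5.18 there, with a gap to the next array that took up 0.905 of the range of the group. Cd40lg was 3.54, with a share of 0.806, and Izumo1r was 4.46, with a share of 0.771. Each share exceeded 0.710, the 95% limit for 5 values. Chance flags about 1 in 20 groups, and 9 were examined, 1 for each gene. Ikzf2 was 6.88 in the same array with a share of 0.699, just under the limit. The share was 0.541 for Il21. On the low side, where this array was the lowest of its group, the share was 0.541 for Tnfrsf18, 0.468 for Foxp3 and 0.108 for Il2ra. The Cd8a and Cd8b1 values of this array are given with the results, and their part in these gaps was not tested.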

How the results depend on the processing

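The count of called members depended on the arrays and on the test. In chronic leukemias 7 of the 9 genes were called, but 4 in 1 fit over all 3 groups, 0 by the methods' t-test after Benjamini-Hochberg, 0 when all rows of the table were adjusted together, and 0 to 5 when each array was left out in turn (0, 1 and 2 without wild-type replicates 1, 2 and 3, and 3 without chronic replicate 2). In exponential leukemias 2 were called, but 5 in 1 fit over all groups and 5 with array weights. The methods' t-test gave 7 without adjustment (1.27% of all genes) and 0 after Benjamini-Hochberg (0.0201% of all genes lower). Over the arrays left out there were 1 to 9 (1 without wild-type replicate 1 or 2, 9 without exponential replicate 4). The replicate number as a block gave 6, and 7 were called on the same arrays without the block, which lack exponential replicates 4 and 5. The numbers were not taken to pair the samples. The deviations of same-numbered arrays correlated at -0.04 to 0.18, and 4 of the 9 pairs exceeded 0.1. Arrays of unlike number were not compared in this way, so these values cannot decide whether the numbers pair the samples. Over all leukemias 6 were called, but 3 by the methods' t-test after Benjamini-Hochberg (0.166% of all genes) and 2 to 9 over the arrays left out (2 without wild-type replicate 2 or 3). The other alternatives stayed within 1.5 times the count, and the phases differed for 0 genes under every alternative run. Shares for the main fits and for those without exponential replicate 4 are given with the results. The other counts with no share beside them are for the 9 genes alone.

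Against wild type 0 member differences changed sign under any alternative run. Between the phases small differences did. Ikzf2 went to -0.044 with the replicate block and on the same arrays without it, and Foxp3 to -0.019 with cyclic loess and -0.0013 with array weights. With arrays left out, Foxp3 ran from -0.052 to 0.079, Il2ra from -0.12 to 0.33, Tnfrsf4 from -0.0081 to 0.31 and Cd40lg from -0.038 to 0.56. Of the 10 genes most alike in pattern, 7 remained without exponential replicate 4 and 3 by Spearman's rank correlation. The replicate-block comparison on matched arrays, and the list counts without exponential replicate 4, were added after seeing the data.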
